A study of Mus musculus with 6 samples.

Results

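Complement components and anaphylatoxin receptors were examined in RNA sequencing of tumor-associated macrophages (TAMs), and comprise 9 of the 22377 genes counted: C3, C4b, Cfb, C1qa, C1qb, C1qc, Cfp, C3ar1 and C5ar1. The members were taken by gene symbol from the count table. They were chosen by their role in complement and with the difference between the groups in these same libraries already known, so the group values below are a description and carry no test. There were 6 libraries, numbered by the labels as separate biosamples, from Lewis lung carcinoma (LLC) tumors grown under the skin of mice aged 6 to 8 weeks. A legend of the study gives fewer mice per group for these data than the libraries of each label, and the mice behind each library are not listed, so p-values here measure the spread between these libraries alone. The labels call 3 libraries wt, here Npm1+/+, and 3 knockdown. The latter are called labelled Npm1+/- here, after the mice described in the study's methods, which were heterozygous for Npm1 with no tissue-specific driver named, so that cells other than macrophages carried the allele too. Mice of both sexes were used, the strain of the Npm1 lines was not given in the sources used here, and no treatment other than the tumor cells is named for these samples. CD45+ CD11b+ F4/80+ cells were sorted for sequencing per the methods, a gate that would leave out CD45-negative fibroblasts and F4/80-negative neutrophils. The labels instead give tumor tissue, TRIzol extraction and enrichment of small RNAs, and the accounts were not reconciled.

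Complement is a cascade of plasma and tissue proteins that marks surfaces for uptake and releases small inflammatory peptides. C1q, built of A, B and C chains, binds immune complexes and dying cells and starts the classical pathway, which cleaves C4 and C2 into a C3 convertase. Factor B, the product of Cfb, forms the convertase of the alternative pathway, and properdin, the product of Cfp, stabilizes it. The receptors C3aR and C5aR1 respond to the cleaved peptides C3a and C5a. Macrophages transcribe C1q, C3, factor B, properdin and both receptors, whereas the liver is the main source of most plasma components.

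Total counts ranged from 36550775 to 38147320 per library, and 13884 genes passed the filter on low counts, all 9 members among them. Levels are TMM-scaled CPM (counts divided by a library total that TMM corrects for composition) unless FPKM, which also divides by gene length, is stated. Npm1, the targeted gene, stood at 142, 380.2 and 381 CPM in the Npm1+/+ libraries and at 441, 499 and 343 CPM in the libraries labelled Npm1+/-, so its mRNA did not follow the labels. The first principal component of all genes carried 67.99% of all variance, and Npm1+/+ replicate 1 lay on it at -108, against -4.54 to 52.0 for the other 5 libraries. The sorting markers Ptprc, Itgam and Adgre1 were present in every library, with at least 928, 1492 and 127 CPM. In libraries of this kind, fewer macrophages and less RNA per macrophage cannot be told apart.

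Per gene length, Cfp was the most abundant member, at 309 ± 25.0 FPKM (SD, n = 3) in the Npm1+/+ libraries and at 276 ± 50.5 FPKM (SD, n = 3) for the label Npm1+/-, and it exceeded C1qb in 6 of 6 libraries. The order that followed by mean FPKM in Npm1+/+ was C1qb (192 ± 10.4), C3 (162 ± 29.2), C5ar1 (130 ± 39.5), C1qa (122 ± 9.37), C1qc (105 ± 12.2), C3ar1 (45.1 ± 8.05), Cfb (12.1 ± 1.28) and C4b (1.92 ± 0.128), with SD over 3 libraries. The means of the libraries labelled Npm1+/- gave the same order. The neighbors C1qb and C3, C3 and C5ar1, and C5ar1 and C1qa had overlapping Npm1+/+ ranges, and C1qb exceeded C3 in 5 of 6 libraries, C3 exceeded C5ar1 in 4 and C5ar1 exceeded C1qa in 3. From C1qa downward each gene exceeded the next in 6 of 6 libraries. The components and receptors thus spanned from 0.604 FPKM for C4b to 337 FPKM for Cfp.

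**Figure D1:**
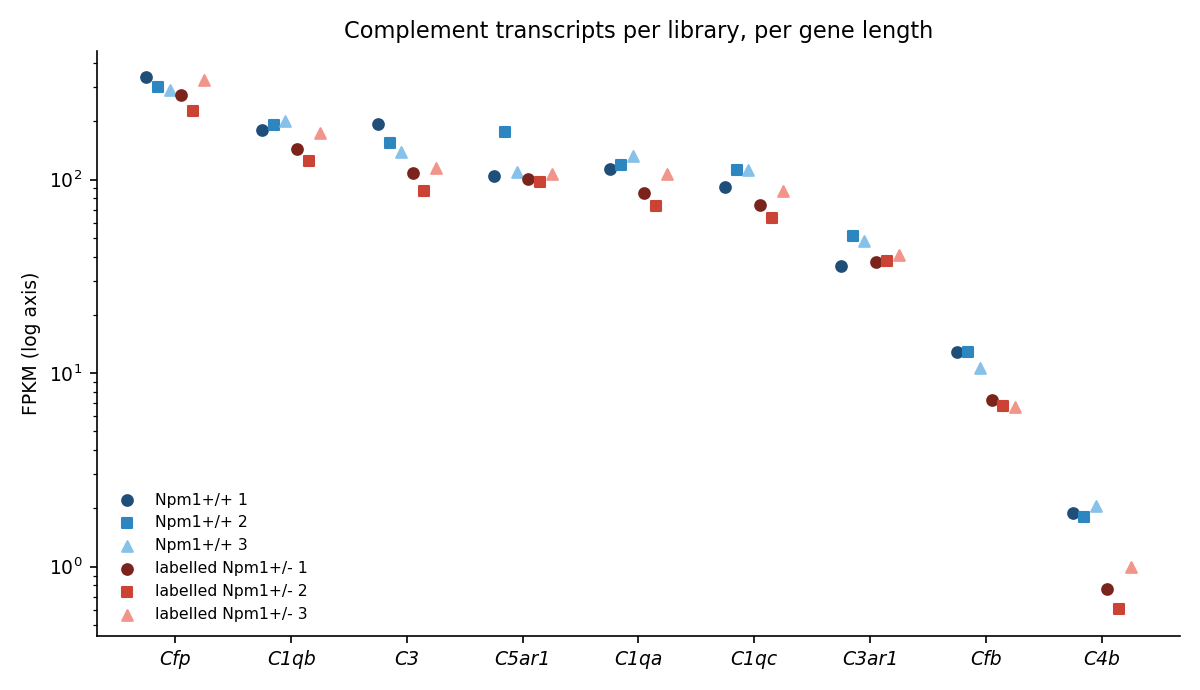
FPKM of the 9 genes (log axis) in each of the 6 libraries, ordered by the Npm1+/+ mean, with 1 point per library. Cfp lay between 226 and 337 FPKM, whereas C4b lay at or below 2.06 FPKM in every library.

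C3, the component on which all complement pathways converge and the source of C3a, is located in GRCm38 at chromosome 17, 57203970 to 57228136 (minus strand). It was present at 1087, 857 and 732 CPM in Npm1+/+ replicates 1, 2 and 3 and 534, 399 and 618 CPM in replicates 1, 2 and 3 labelled Npm1+/-. Each library labelled Npm1+/- was below each Npm1+/+ library, and the margin between the nearest libraries, 618 and 732 CPM, was less than the range of either group. The log2 fold change was -0.79 (standard error 0.21), from means of 892 ± 180 (SD, n = 3) and 517 ± 110 CPM (SD, n = 3). By mean CPM, which is not divided by gene length, 197 of the 13884 genes tested stood above C3.

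C4b, which encodes the C4 protein of the classical and lectin pathways, is located at chromosome 17, 34728380 to 34743882 (minus strand). Npm1+/+ libraries held 11.1, 10.7 and 11.5 CPM of it, against 4.02, 2.89 and 5.61 CPM in those labelled Npm1+/-. The Npm1+/+ libraries were nearly alike (11.1 ± 0.420 CPM, SD, n = 3), and the highest library labelled Npm1+/- was little over 50% of the lowest of them. The log2 fold change was -1.41 (standard error 0.27), the largest in size among the members, and 36 of all genes tested had a more negative one. By limma on log2(FPKM + 1), a pseudocount near the level of C4b itself, the estimate was -0.71, against -0.72 for Cfb. C4b is 1 of the genes that the study displays for their decrease, a choice made on these samples. The values rest on 121 to 430 counts per library. Of the 75-base stretches of the longest C4b transcript in GENCODE, 23.5% also occur in transcripts of the neighboring gene C4a, so reads from those stretches could come from either gene, and C4a was not analysed here.

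Cfb (chromosome 17, 34856374 to 34862518, minus strand) encodes factor B, the protease of the alternative pathway convertase. It stood at 38.0, 38.0 and 29.8 CPM in the Npm1+/+ libraries and at 19.2, 16.4 and 19.2 CPM in those labelled Npm1+/-. The groups were apart, and the libraries labelled Npm1+/- spread little (18.3 ± 1.61 CPM, SD, n = 3, against 35.3 ± 4.72 CPM, SD, n = 3). The log2 fold change was -0.95 (standard error 0.16), the smallest standard error of the 9. A read-through gene model, Gm20547, overlaps Cfb on the same strand and holds 81.2% of the 75-base stretches of its transcript, so reads of Cfb and of the read-through RNA cannot be told apart here.

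On the FPKM scale the ratio of C3 to C4b within a library was 67.0 to 103 in Npm1+/+ and 116 to 145 in the libraries labelled Npm1+/-, without overlap, since the difference in C4b was the greater one. The ratio of C3 to Cfb overlapped, at 12.0 to 15.2 and 12.9 to 17.1. The 3 convertase genes are also transcribed by fibroblasts, and C3, C4b and Cfb are known to respond to interferon. The fibroblast list (10 genes, led by Col3a1, Thy1, Pdgfra and Dcn) summed to 32.7, 491 and 305 CPM in the Npm1+/+ libraries. In those labelled Npm1+/- it summed to 715, 615 and 369 CPM, and the groups overlapped. The interferon list summed to 1867 to 2554 CPM and 1772 to 1924 CPM. Of its 14 genes, 13 had a negative estimate, Irf1 being the exception, and the median estimate was -0.33 on the log2 scale. The part of either list in the complement values was not tested.

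C1qa, C1qb and C1qc encode the A, B and C chains of C1q and lie together on chromosome 4 within 18675 bp, from 136880129 to 136898803, each in 3 exons on the minus strand. C1qa stood at 132, 138 and 145 CPM in the Npm1+/+ libraries and at 88.2, 68.8 and 119.7 CPM in those labelled Npm1+/-. C1qb stood at 214, 226.7 and 226.7 CPM and at 151, 120.2 and 197 CPM. C1qc stood at 109.8, 135 and 128 CPM and at 79.1, 61.7 and 101 CPM. In all 3 genes the groups did not overlap, and replicate 3 labelled Npm1+/- lay nearer to the Npm1+/+ libraries than to replicate 2 of its own label. The log2 fold changes were -0.59 (standard error 0.20) for C1qa, -0.51 (standard error 0.18) for C1qb and -0.63 (standard error 0.19) for C1qc.

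The chains kept nearly fixed proportions in every library. On the FPKM scale the ratio of C1qb to C1qa was 1.53 to 1.71 over the 6 libraries, that of C1qb to C1qc 1.71 to 1.99 and that of C1qa to C1qc 1.06 to 1.25. The ratio of C1qb to C1qa was 1.58 ± 0.0413 (SD, n = 3) in Npm1+/+ against 1.67 ± 0.0495 (SD, n = 3) for the label Npm1+/-. These ranges did not overlap, whereas those of the other 2 ratios did. No 75-base stretch of the C1q transcripts, nor of C3, Cfp, C3ar1 or C5ar1, occurs in transcripts of another gene.

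Cfp, on chromosome X from 20925454 to 20931555 on the minus strand, encodes properdin, the positive regulator of the alternative pathway. Npm1+/+ libraries held 592, 527 and 482 CPM, against 428, 322 and 552 CPM in those labelled Npm1+/-. The groups overlapped, since replicate 3 labelled Npm1+/- exceeded 2 of the Npm1+/+ libraries. The log2 fold change was -0.30 (standard error 0.20), the smallest of the 9 in size, and it was -0.13 without replicate 2 labelled Npm1+/- and -0.52 without replicate 3. Within each library Cfp exceeded C3 on the FPKM scale, by a ratio of 1.73 to 2.10 in Npm1+/+ and 2.55 to 2.84 in the libraries labelled Npm1+/-, without overlap.

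C3ar1 (chromosome 6, 122847138 to 122856161, minus strand) encodes the receptor for C3a. It stood at 166, 236 and 211 CPM in the Npm1+/+ libraries and at 153, 142 and 181 CPM in those labelled Npm1+/-. Npm1+/+ replicate 1 lay below the highest library labelled Npm1+/-, so the groups overlapped, with an estimated log2 fold change of -0.36 (standard error 0.17). C5ar1 (chromosome 7, 16246743 to 16259540, minus strand) encodes the main receptor for C5a. Npm1+/+ libraries held 288, 483 and 287 CPM of it, against 247, 218 and 284 CPM in those labelled Npm1+/-. The groups met almost without a gap, at 287 against 284 CPM, and Npm1+/+ replicate 2 alone stood well above the rest. The log2 fold change was -0.50 (standard error 0.23), and without Npm1+/+ replicate 2 it was -0.20. Both receptors are also expressed by neutrophils, whose list (7 genes, led by S100a9, Csf3r, S100a8 and Mmp8) summed to 1889 to 2093 CPM in Npm1+/+ and 836 to 1607 CPM in the libraries labelled Npm1+/-. The part of neutrophil RNA in the receptor values was not tested.

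All 9 members had a negative log2 fold change, as did 47.9% of all genes tested, with a median of -0.59 against 0.02 over all genes. In 7 members the values labelled Npm1+/- lay below all Npm1+/+ values, as they did in 12.6% of all genes, while 13.3% of genes separated in the other direction and 0 members did. The exceptions were Cfp and C3ar1. Since the members were chosen with this contrast known, nothing is read from these counts. By edgeR's quasi-likelihood test over all 6 libraries, 0% of the 13884 genes had an adjusted p-value under 0.05, so that 0 members did, with 2112 genes at an unadjusted p-value under 0.05 and 36 genes called by DESeq2. DESeq2 called 0.263% of genes over the 6 libraries, C4b and Cfb among them. Over the 4 libraries that remain without Npm1+/+ replicate 1 and replicate 3 labelled Npm1+/-, a choice made with earlier results of these data known, it called 10.6% of genes, with 8 of the members (Cfp being the exception), and edgeR called 0 genes over these 4, with 3290 at an unadjusted p-value under 0.05.

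**Figure D2:**
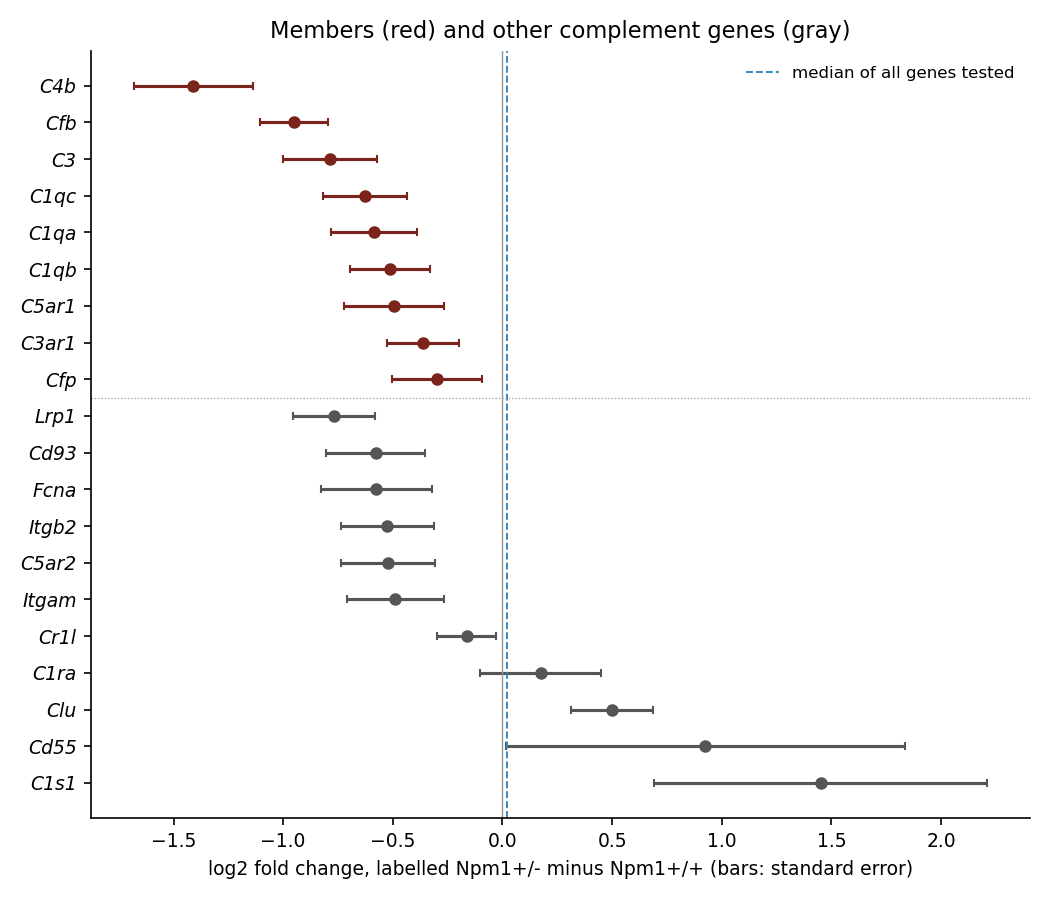
log2 fold change (labelled Npm1+/- minus Npm1+/+) with its standard error for the 9 members in red and for 11 other complement genes in gray, with the median of all genes tested as a dashed line. The members range from -1.41 for C4b to -0.30 for Cfp, and C1s1, at 1.45, lies farthest to the right.

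The libraries differed among themselves in a common order. Replicate 2 labelled Npm1+/- had the lowest CPM of the 6 libraries in all 9 members, and replicate 3 had the highest of its label in all 9. On the FPKM scale, which has no correction for composition, replicate 2 was lowest in 7 members, replicate 3 was highest of its label in 8, and 6 members separated the groups, as did 6.88% of all genes in that direction. Among the Npm1+/+ libraries the order varied by gene. Replicate 1 was the highest in C3 and Cfp and the lowest in C1qa, C1qb, C1qc and C3ar1. In Cfb it was level with replicate 2, both at 38.0 CPM. The range over the 6 libraries was widest for C4b, at 1.97 on the log2 scale, and narrowest for C3ar1, at 0.73. Without replicate 3 labelled Npm1+/-, the groups separated in 9 of 9 members against 22.8% of all genes in the same direction, and without Npm1+/+ replicate 1 in 8 members against 14.9%.

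**Figure D3:**
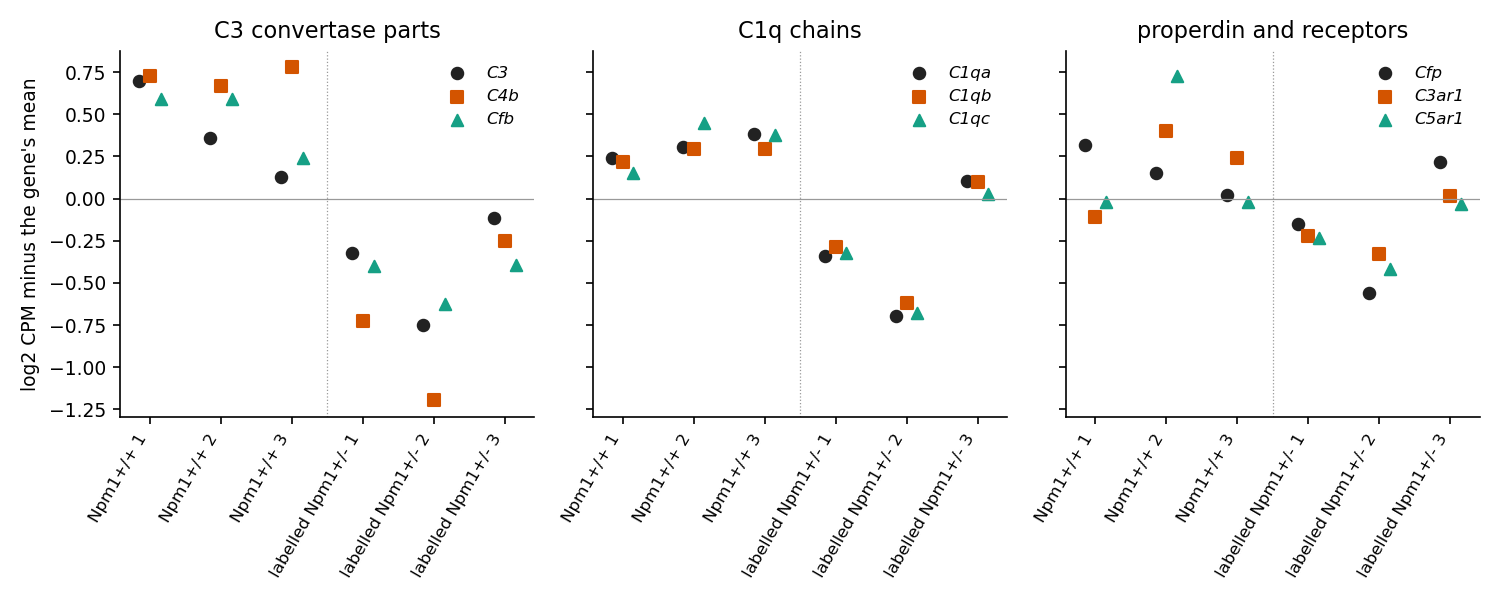
log2 CPM of each member minus its own mean over the 6 libraries, in 3 panels by role, with 1 point per gene and library. The points of the C1q chains nearly coincide in each library, and replicate 2 labelled Npm1+/- is the lowest library in each panel.

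The summed macrophage markers were also lower in the libraries labelled Npm1+/-. The macrophage list (9 genes, led by Lyz2, Ptprc, Csf1r and Cd68) summed to 19254, 14664 and 13803 CPM in Npm1+/+ replicates 1, 2 and 3 and to 10680, 8380 and 13676 CPM in replicates 1, 2 and 3 labelled Npm1+/-. Lyz2 made up most of the sum (14144 CPM in Npm1+/+ replicate 1), and its groups overlapped. All 9 genes of the list had a negative estimate, the smallest in size being -0.091 for Ptprc and -0.155 for Mertk. In 5 of the 9 the groups did not overlap, against 12.6% of all genes in that direction. The median log2 fold change was -0.54, close to that of the C1q chains. The monocyte list summed to 5490 to 6576 CPM and 2724 to 4984 CPM, and both lists had replicate 2 labelled Npm1+/- as the lowest library and replicate 3 as the highest of its label, the order seen in the members. The T cell list summed to 27.9 to 105 CPM in Npm1+/+ and 83.8 to 232 CPM in the libraries labelled Npm1+/-, and the epithelial or carcinoma list to 35.2 to 137 CPM and 129 to 191 CPM. The endothelial (3.15 to 13.9 CPM), NK cell (15.6 to 69.3 CPM), B cell (6.26 to 58.0 CPM), mast cell (8.12 to 12.2 CPM) and dendritic cell (216.5 to 372 CPM) lists overlapped between the groups, and none of the genes in these lists had 0 counts in every library. The part of cell composition in the complement values was not tested.

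**Figure D4:**
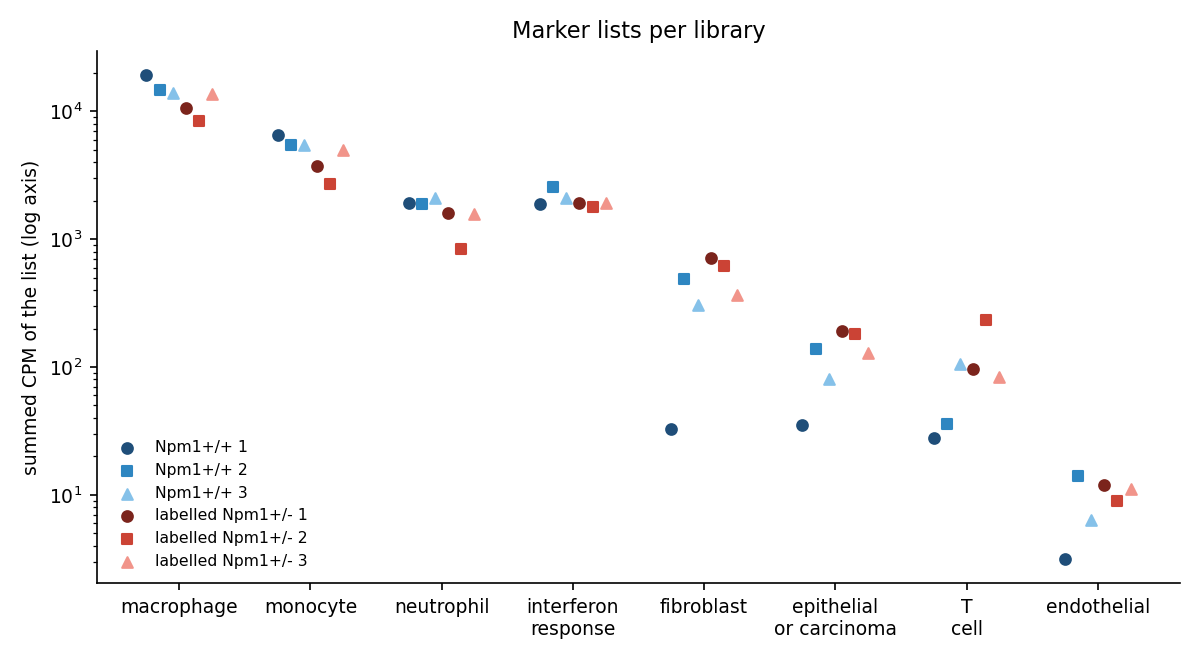
Summed CPM of the marker lists in each library (log axis), with 1 point per library. The macrophage, monocyte and neutrophil lists lie lower in each library labelled Npm1+/- than in each Npm1+/+ library, while Npm1+/+ replicate 1 has the lowest fibroblast sum, at 32.7 CPM.

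The members were also taken as log2 ratios to the mean of the macrophage list in the same library. C4b, Cfb and C3 were without overlap, the libraries labelled Npm1+/- being lower. The ratio for C4b was -5.60 to -5.30 in Npm1+/+ and -6.53 to -6.23 in the libraries labelled Npm1+/-, a difference of means of -0.94. For Cfb the ranges were -3.92 to -3.59 and -4.46 to -4.05, a difference of -0.43. For C3 they were 0.69 to 1.01 and 0.54 to 0.68, a difference of -0.28 with a gap between the groups of 0.01.
C1qa, C1qb and C1qc overlapped, with differences of -0.11, -0.03 and -0.14, so that the C1q chains kept to the macrophage list within the spread between libraries. C3ar1 and C5ar1 overlapped as well, with differences of 0.16 and 0.06. Cfp separated in the other direction, at 0.09 to 0.21 in Npm1+/+ and 0.24 to 0.38 in the libraries labelled Npm1+/-, a difference of 0.19. The sign for Cfp and C3ar1 thus depended on the scaling, and a refit in edgeR with this scaling gave 0.19 and 0.13 for them. For C5ar1 the refit gave -0.0045 (standard error 0.25), against 0.06 for the ratio, so its sign was not settled. This scaling, chosen after the data were examined, moved the median log2 fold change of all genes from 0.02 to 0.55, and every member lay below that median. On this scale 0.835% of all genes separated with the libraries labelled Npm1+/- lower and 38.3% with them higher.

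**Figure D5:**
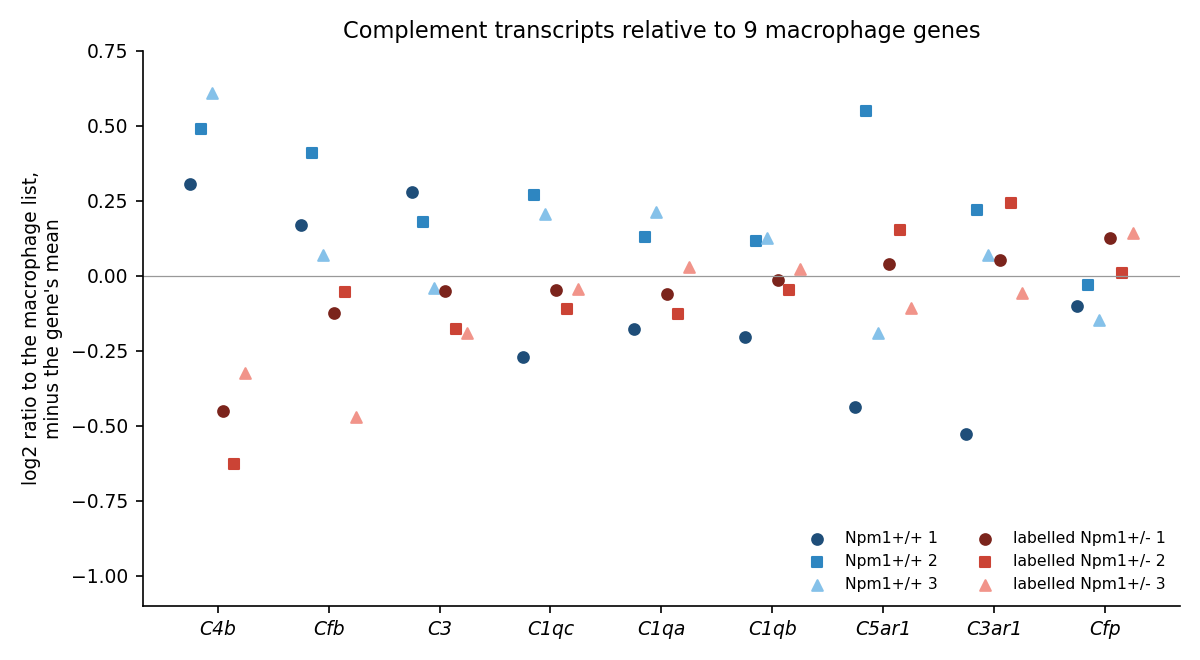
log2 ratio of each member to the mean of 9 macrophage genes in the same library, minus the gene's mean over 6 libraries, with 1 point per library. C4b, Cfb and C3 lie lower in the libraries labelled Npm1+/-, Cfp lies higher, and the other genes overlap.

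The genes whose level varied most like a member were found by the root mean square difference of centred log2 CPM over the 6 libraries, among 8091 other genes with a mean of at least 10 CPM (8092 for C4b). For C3 these included Nrros and Spi1, at 0.051 and 0.067. Spi1 encodes PU.1, the lineage transcription factor of macrophages. For C4b they were Mpeg1, H2-T24 and Siglec1, at 0.25, 0.25 and 0.26, and for Cfb they were Xylt1, P2ry6 and Lgals3bp, at 0.099, 0.11 and 0.11.
For C1qa they included Mmp8, a gene of the neutrophil list, and Ms4a8a, at 0.051 and 0.052. In that order C1qb stood at rank 4 and C1qc at rank 11. For Cfp they were Dusp3, Ndel1 and Ccdc86, at 0.028, 0.029 and 0.042. Other members stood further down these orders. Cfb ranked 274 for C3 and C1qa ranked 737, and in the order for C4b, Cfb ranked 34, C3 ranked 67 and C1qa ranked 117. C5ar1 ranked 381 in the order for C3ar1.

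Since the study asks about NPM1 and the transcription factor STAT3, the promoters in RefSeq (GRCm38.p6) were searched on both strands for short motifs. Each promoter ran from 250 bases before to 50 after the start of transcription. The motifs were STAT (TTCNNNGAA), the interferon response core (GAAANNGAA), PU.1 (GAGGAAGT) and kB (GGANTTTCC). The string TTGCNNCAA was searched as well. It differs from the usual C/EBP consensus, so C/EBP sites were not searched. A promoter was matched for 6 members (C3, C1qb, C1qc, Cfp, C3ar1 and C5ar1). The STAT motif was found in 0 of the 6 and in 8.3% of all 32851 promoters. TTGCNNCAA and the kB motif were likewise in 0 of the 6, against 2.08% and 1.25% of all promoters. C5ar1 held the interferon core on the opposite strand at -66 to -58 (8.56% of all promoters hold it), and C1qc held the PU.1 motif on the opposite strand at -195 to -188 (3.2% of all). For C5ar1, C1qc and, by a few bases, C3ar1 the RefSeq start lies inside the GENCODE gene span. Part of each window before the start thus overlaps the gene. That part holds the C5ar1 match but not the C1qc match. A window without these letters says nothing of whether a factor binds there. The 250 bases before the start are shown for C1qb and C1qc, which lie in 1 cluster and varied together, with the PU.1 match in capitals, and for C3, the most abundant component of the convertases. All lie on the minus strand, at chr4:136886201-136886450, chr4:136892915-136893164 and chr17:57228137-57228386.
C1qb: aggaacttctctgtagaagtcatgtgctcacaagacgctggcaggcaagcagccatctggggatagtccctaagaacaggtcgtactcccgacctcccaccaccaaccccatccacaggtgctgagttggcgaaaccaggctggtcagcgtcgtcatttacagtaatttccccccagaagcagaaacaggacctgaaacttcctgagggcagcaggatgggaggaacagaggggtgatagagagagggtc
C1qc: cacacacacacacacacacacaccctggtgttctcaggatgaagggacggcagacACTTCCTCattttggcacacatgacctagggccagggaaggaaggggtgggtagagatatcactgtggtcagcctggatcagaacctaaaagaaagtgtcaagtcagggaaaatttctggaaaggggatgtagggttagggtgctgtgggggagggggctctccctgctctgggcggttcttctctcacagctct
C3: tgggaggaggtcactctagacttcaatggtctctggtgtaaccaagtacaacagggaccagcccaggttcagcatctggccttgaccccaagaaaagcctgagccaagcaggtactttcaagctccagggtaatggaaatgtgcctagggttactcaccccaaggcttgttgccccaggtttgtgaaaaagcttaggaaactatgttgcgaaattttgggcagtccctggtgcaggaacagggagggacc

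The rest of the pathway was taken from a list of 48 further complement genes by role, of which 38 were in the table and 21 passed the filter on low counts. Of these 21, 0 had an adjusted p-value under 0.05 by edgeR's quasi-likelihood test over all genes (lowest 0.328). By the same test 5 of the 21 had an unadjusted p-value under 0.05, as did 15.21% of all genes. DESeq2 and limma also called 0 of them over the 6 libraries. Estimates were negative in 11 and positive in 10, with a median of -0.16 against 0.02 over all genes. The pathway was thus incomplete at the level of transcripts. Each of the 6 terminal pathway genes in the table, C5 (listed as Hc) among them, had at most 11 counts in any library, and Cfd, the protease that cleaves factor B, had at most 5.

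Among the serine proteases that C1q activates, C1s1 stood at 0.534, 7.72 and 6.60 CPM in the Npm1+/+ libraries and at 16.3, 14.7 and 9.60 CPM in those labelled Npm1+/-. The groups did not overlap, in the direction opposite to the C1q chains, with an estimate of 1.45 on the log2 scale (standard error 0.76, edgeR adjusted p = 0.353), or 0.92 without Npm1+/+ replicate 1. C1ra stood at 5.37, 8.09 and 5.96 CPM and at 9.31, 7.11 and 5.50 CPM. Both have their lowest value in Npm1+/+ replicate 1, the library with the lowest fibroblast sum, and the part of fibroblast RNA in them was not tested. Of the regulators, Clu, which encodes clusterin, stood at 12.1, 14.6 and 16.1 CPM and at 23.9, 19.6 and 17.2 CPM, higher in each library labelled Npm1+/-, with a log2 fold change of 0.50 (standard error 0.19, edgeR adjusted p = 0.328). Cr1l (Crry, the membrane inhibitor of the C3 convertase) and Cd55 had log2 fold changes of -0.16 (standard error 0.14) and 0.93 (standard error 0.91), with overlap between the groups, and that of Cr1l was -0.06 without Npm1+/+ replicate 1 and 0.36 when scaled to the macrophage list.

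Itgam, which encodes a chain of complement receptor 3 and served as a sorting marker, stood at 2877, 2975 and 2708 CPM in the Npm1+/+ libraries and at 1945, 1492 and 2660 CPM in those labelled Npm1+/-. It differed by -0.49 on the log2 scale (standard error 0.22, edgeR adjusted p = 0.331). The estimate was -0.32 without replicate 2 labelled Npm1+/-, -0.74 without replicate 3 and -0.02 when scaled to the macrophage list. Lrp1, which encodes a receptor that takes up C1q-coated material, had -0.77 (standard error 0.19, edgeR adjusted p = 0.328), with 2121, 1757 and 1640 CPM and 1025, 906 and 1306 CPM. Besides Itgam and Lrp1, the genes whose values labelled Npm1+/- all lay below the Npm1+/+ values were Fcna, C5ar2 and Cd93, which together make 5 of 21 against 12.6% of all genes, and C1s1 and Clu made 2 of 21 in the other direction against 13.3%. Fcna, C5ar2 and Cd93 are named because of these values. C5ar2, the second receptor for C5a, stood at 15.3, 11.0 and 12.6 CPM and at 8.27, 7.90 and 11.0 CPM, so that the nearest libraries of the groups were almost equal.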

How the data were processed

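RNA was sequenced as paired ends from sorted TAMs after SMARTer amplification, per the methods of the study, whereas the labels describe a small RNA library from tumor tissue. The authors deposited a table of unnormalized counts for each gene and a table of FPKM values (scaled to gene length and library total). The processing notes name mm10, and the aligner, counter and annotation are not given in the sources used here. Counts were analysed with edgeR 4.0.16 in R 4.3.3 (filterByExpr, TMM, glmQLFit, glmQLFTest, Benjamini-Hochberg adjustment over the 13884 genes tested), and a standard error was taken as the size of the estimate over the root of F. DESeq2 1.42.0 and limma 3.58.1 (log2 FPKM plus 1 or plus 0.1) were alternatives. log2 CPM used a prior count of 2. The fits were tested on simulated data. The members and lists were chosen with earlier results of these data known. Genes were named by rule: the 9 members, Npm1, the 2 genes of highest mean count in each other role, and the 3 nearest genes of 5 members. Some genes that this rule names are not reported here. Itgb2 and the genes stated in the text were added after their values were seen. Coordinates are from GENCODE M21.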

Additional observations from a re-analysis of the deposited data

How the results depend on the processing

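The 9 members had negative estimates under each of these settings: RLE and upper quartile scaling, other filters, DESeq2, limma on FPKM, the replicate block, and each library left out. edgeR and limma called 0 genes in each. DESeq2 called 36 genes over the 6 libraries, 2 of them members. Over 4 libraries, without Npm1+/+ replicate 1 and replicate 3 labelled Npm1+/-, it called 1284 genes, 8 of them members, and 5 other complement genes (C1s1, Itgam, Itgb2, Cd93 and Lrp1), and the cause was not tested. The median of the members was -0.42 without replicate 2 labelled Npm1+/- and -0.82 without replicate 3, against -0.59. The log2 fold change of C4b stayed between -1.69 and -1.21 and that of Cfb between -1.07 and -0.89 with 1 library left out, and limma on log2(FPKM + 1) gave -0.71 and -0.72. Scaling to the macrophage list was added once the values were known. With it, 4 members had groups that did not overlap, against 7. Of these, 3 were lower, as were 0.835% of all genes, and 1 was higher, as were 38.3%. The estimates became 0.19 for Cfp, 0.13 for C3ar1 and 0.36 for Cr1l. With 1 library left out, C1ra ranged from -0.040 (without replicate 1 labelled Npm1+/-) to 0.36 and Cd55 from -0.14 (without replicate 2 labelled Npm1+/-) to 2.15. Same-numbered libraries did not deviate together (r of -0.241, 0.060 and -0.337), so the numbers were not taken to pair them. With the replicate block, 0 genes were called, with 1606 at an unadjusted p under 0.05, and no call changed. Groups of 3 were not tested for single outlying libraries.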
